A study of Mus musculus with 2 samples.

Results

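The miR-17~92 cluster on chromosome 14 and the miR-106b~25 cluster in the gene Mcm7 on chromosome 5 are the autosomal members of a family of related microRNA clusters. Their 9 genes, Mir17, Mir18, Mir19a, Mir20a, Mir19b-1 and Mir92-1 of the first and Mir106b, Mir93 and Mir25 of the second, were chosen by symbol from the 2202 microRNA genes counted. MicroRNA-seq, which reads RNA shorter than 30 bases, was done on total RNA from left cerebral cortex, taken from male 5xFAD/CAST adults of 8 to 10 months. 5xFAD is a transgenic model of amyloid deposition whose transgenes are driven in neurons by Thy1 promoter sequences, CAST is the short name of a strain derived from wild mice, and the labels do not say whether the sampled animals carried the transgenes. There is 1 group of 2 libraries, replicates 1 and 2, from separate tissue samples listed under 1 donor identifier. Whether p-values and SDs here measure animals or only technical spread is therefore unknown. No control group was analysed here.

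A microRNA cluster is transcribed as a long primary RNA, from which the enzymes Drosha and Dicer cut each hairpin and then each mature microRNA. The miR-17~92 transcript is known as an oncogenic and growth-promoting RNA, is driven by Myc and E2F factors, and supports the expansion of neural progenitors in the developing cortex. The miR-106b~25 hairpins are processed from an intron of Mcm7, which encodes a subunit of the helicase that opens DNA for replication, so both clusters are best known from dividing cells, whereas neurons of the adult cortex do not divide. A mature microRNA finds its targets mainly through its seed, bases 2 to 8 from the 5′ end.

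The 9 members carry 4 seeds, and these decide which genes of the clusters can be compared like for like. The mature microRNAs below are the arms usually taken as the active ones (RefSeq, GRCm38.p6, 5′ to 3′), with the seed in capitals. The first set is the miR-17 family, which represses the cell cycle inhibitor Cdkn1a, and it has members in both clusters.
Mir17: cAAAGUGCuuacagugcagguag
Mir20a: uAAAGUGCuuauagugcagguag
Mir106b: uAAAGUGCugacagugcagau
Mir93: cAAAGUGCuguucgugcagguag
The second set is the miR-92 family, which represses the pro-apoptotic gene Bcl2l11 and is also in both clusters. Mir92b, a gene outside the clusters, is shown because it carries the same seed at a far higher counted level.
Mir92-1: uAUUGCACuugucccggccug
Mir25: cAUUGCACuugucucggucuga
Mir92b: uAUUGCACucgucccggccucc
The third set, miR-18 and miR-19, is found in miR-17~92 and not in miR-106b~25.
Mir18: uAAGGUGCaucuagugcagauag
Mir19a: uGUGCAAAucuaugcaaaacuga
Mir19b-1: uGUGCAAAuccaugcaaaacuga

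Within a seed family the mature sequences differ at few positions, counted from 1 at the 5′ end, with the base of the first-named microRNA written first. Mir17 and Mir20a differ by C1U and C12U. Mir17 and Mir93 differ by U10G, A11U, C12U and A13C. Over the 21 bases they share in length, Mir92-1 and Mir25 differ by U1C, C14U and C18U. Mir92-1 and Mir92b differ by U10C and G21C over the same length. Mir19a and Mir19b-1 differ by U11C alone. The mature sequences of Mir19b-1 and Mir92-1 are identical to those of the X-linked genes Mir19b-2 and Mir92-2, and these are the only members whose precursor shares 20 bases with another of the 1005 RefSeq precursors compared. Reads that map to several places are a separate total in the deposited tables, 38.5% of all reads in replicate 1 and 33.0% in replicate 2, so the counts of Mir19b-1 and Mir92-1 may be too low. The other 7 members share no such stretch.

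Counts are given per precursor, so both arms of a hairpin enter a single value. The 2 hairpins that follow, from the most abundant and the least abundant member of miR-106b~25, show what is counted, with the annotated arms in capitals.
Mir93: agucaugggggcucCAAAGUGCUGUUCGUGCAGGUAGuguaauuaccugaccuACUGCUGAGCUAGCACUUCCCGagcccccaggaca
Mir25: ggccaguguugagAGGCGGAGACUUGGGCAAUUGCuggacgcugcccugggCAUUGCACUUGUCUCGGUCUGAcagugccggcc
A read covers a whole mature microRNA, so levels were not divided by gene length. They are compared between genes as CPM, the counts scaled to a library total of 1000000 reads on microRNA genes. Whether different sequences enter a library equally well was not tested, so ratios between genes here are ratios of reads.

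In GENCODE M21 coordinates on mm10, the 6 members of miR-17~92 lie on the plus strand of chromosome 14 between 115043671 and 115044506, all in exon 2 of the long non-coding RNA gene Mir17hg (115042879 to 115046727). The 3 members of miR-106b~25 lie on the minus strand of chromosome 5 between 138165321 and 138165818, in intron 13 of the annotated Mcm7 transcript with 15 exons. Mir93 and Mir25 also fall in exon 1 of a short Mcm7 transcript with 2 exons. The first cluster spans 836 bases and the second 498. No read was counted on the opposite strand at any of the 9 genes. The RNA of Mcm7 and Mir17hg themselves is not measured in these libraries.

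Depth was 4929428 reads counted on microRNA genes in replicate 1 and 4441328 in replicate 2, and a single read is worth 0.203 and 0.225 CPM. The neuronal markers checked, 12 genes such as Mir128-1 and Mir137, were detected at 10 of 12 and summed to 54945 and 65872 CPM. Without Mir132, left out after its values were seen, they summed to 35264 and 21175 CPM. Mean levels of the 12 ran from 0.304 CPM for Mir124a-3 to 32190 CPM for Mir132. Low ones also included Mir124a-1, Mir124a-2 and Mir9-2, at 3.48, 1.70 and 3.02 CPM. Reads that map to several places are not in these counts, so genes with several copies, such as Mir124a and Mir9, may be counted too low. How far this lowers their values was not tested. The markers of embryonic stem cells, 10 genes of the Mir302 and Mir290 clusters, were detected at 0 of 10, with 11 and 10 reads in all. Of all genes, 417 were detected, meaning 10 or more reads in each library, and the median detected gene stood at 94.7 CPM.

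Both clusters were expressed in this cortex, and miR-106b~25 gave more reads from its 3 genes than miR-17~92 from its 6. Reads of miR-106b~25 summed to 1760 CPM in replicate 1 and 1484 CPM in the other library, or 1622 ± 195 CPM (SD, n = 2). Those of miR-17~92 summed to 1061 and 893 CPM, or 977 ± 119 CPM. The 2 ranges do not overlap. In all, 7 of the 9 members were detected, 4 of 6 in miR-17~92 and 3 of 3 in miR-106b~25. Together the clusters took 0.282% and 0.238% of the reads counted on microRNA genes, which leave out those mapping to several places.

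The ratio of the summed level of miR-106b~25 to that of miR-17~92 was 1.66 (exact 95% interval 1.60 to 1.72) in replicate 1 and 1.66 (1.60 to 1.73) in replicate 2. The libraries thus gave the same ratio within counting error, and the direction was the same in 2 of 2. An exact sign test over 2 libraries cannot give a p below 0.5, so none was run. The ratio rests on a single gene. Mir93 supplied 75.7% of the reads of its cluster in each library, and without it, an alternative added after the values were seen, Mir106b and Mir25 together came to 0.403 of miR-17~92. Without Mir92-1 and Mir19b-1, whose reads may be lost to multiple mapping, the ratio of the clusters was 2.47. Both genes are in miR-17~92, so leaving them out could only raise the ratio. Any reads lost from them lower the sum of miR-17~92 alone, so the ratio of 1.66 may be too high. Comparing the median member of each cluster, 347 CPM in miR-106b~25 and 115 CPM in miR-17~92, gave 3.02. The undetected Mir19a and Mir19b-1 enter the median of miR-17~92, and without them that median would be higher and the ratio lower.

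**Figure D1:**
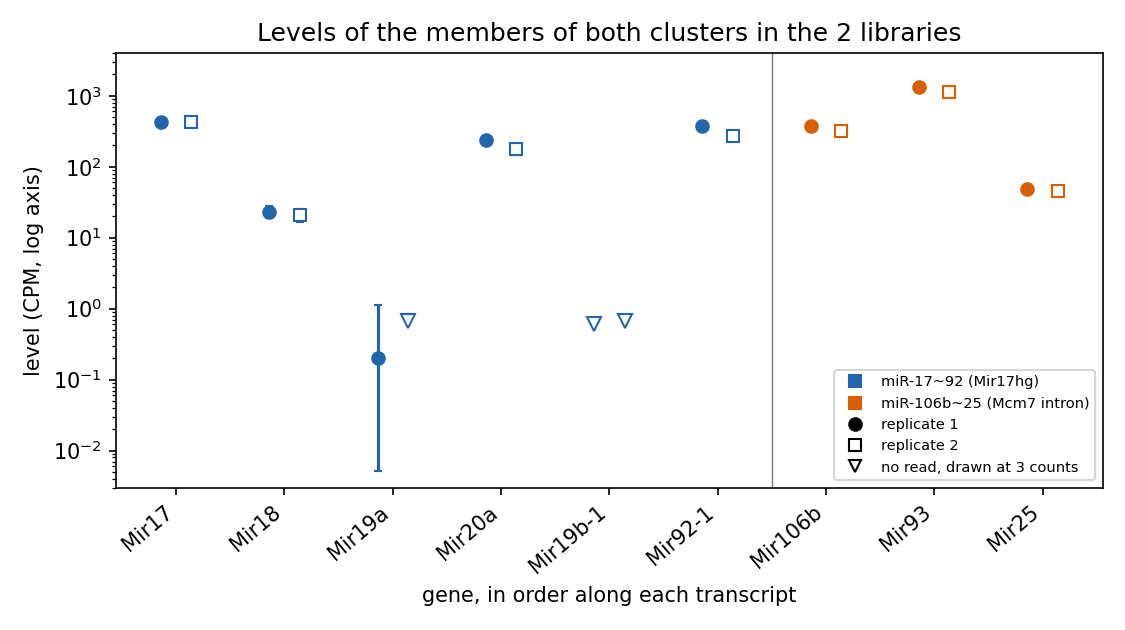
Level of each member in CPM on a log axis, in the order of the genes along each transcript, with filled circles for replicate 1, open squares for replicate 2 and exact 95% counting intervals. Mir93 stands above every other member in both libraries, and Mir19a and Mir19b-1 lie at or under the level of 3 reads, where triangles mark genes without a read.

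In order of mean level, the members ran Mir93, Mir17, Mir106b, Mir92-1, Mir20a, Mir25, Mir18, Mir19a and Mir19b-1. The values of Mir106b and Mir92-1 in the 2 libraries overlapped. For every other pair of neighbours down to Mir18 and Mir19a, the lower value of the first lay above the higher value of the second. Mir93 lay above 78.9% of the detected genes, and Mir17, Mir106b, Mir92-1 and Mir20a also lay above the median detected gene. Mir25 lay below it, above 41.2% of the detected genes, and so did Mir18, above 33.3%. Mir19a and Mir19b-1 were not detected.

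The miR-17 family made up most of both clusters, and here miR-106b~25 was ahead. Mir93 stood at 1332 CPM in replicate 1 and 1124 CPM in replicate 2, or 1228 ± 147 CPM. Its neighbour Mir106b was lower, at 379 and 314 CPM. The ratio of Mir93 to Mir106b was 3.51 (3.34 to 3.70) and 3.58 (3.37 to 3.80), the same in both libraries within counting error. On chromosome 14, Mir17 stood at 423 and 425 CPM, at this scaling the smallest spread of the 7 detected members (coefficient of variation 0.287%). Mir20a stood at 239 and 179 CPM, and both values are below those of Mir17 and Mir106b.

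Set against each other, Mir106b and Mir93 together exceeded Mir17 and Mir20a by a ratio of 2.58 (2.48 to 2.69) in replicate 1 and 2.38 (2.28 to 2.49) in replicate 2, or 2.48 ± 0.142. The pool of all 7 annotated genes with the seed AAAGUGC, counted with both arms, summed to 2386 and 2052 CPM. The 2 autosomal clusters supplied nearly all of it: miR-106b~25 gave 70.9 ± 1.16% and miR-17~92 gave 28.6 ± 1.17%. The X-linked paralogues Mir106a (14 and 16 reads) and Mir20b (48 and 31 reads) added 0.521 ± 0.00809%. Mir6383, the remaining gene with this seed, had no read.

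In the miR-92 family the order of the clusters by counted reads was the opposite. Mir92-1 stood at 375 and 268 CPM, and Mir25 at 48.7 and 45.7 CPM. The ratio of Mir92-1 to Mir25 was 7.70 (6.72 to 8.84) in replicate 1 and 5.87 (5.06 to 6.85) in replicate 2. A read of exactly the mature miR-92a sequence fits both of its loci and would not be counted at Mir92-1. The gap may therefore be wider. Which arm or longer form gave the reads counted at Mir92-1 was not tested. The ratio is therefore of counted reads, and not a like-for-like comparison of the seed. Mir25 was the lowest member of its cluster by far, with Mir93 above it by 27.4-fold (24.0 to 31.2) and 24.6-fold (21.4 to 28.4), although both are cut from the same intron and neither shares 20 bases with another precursor.

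Among the reads counted per gene, neither cluster held most of those on genes with the miR-92 seed. Mir92b, a separate gene at chromosome 3, 89227116 to 89227198 on the minus strand, stood at 5764 and 5288 CPM. It was 15.4-fold (14.7 to 16.1) and 19.7-fold (18.6 to 20.9) above Mir92-1. Of the 6227 and 5628 CPM summed over the 7 annotated genes with the seed AUUGCAC, miR-17~92 supplied 5.39 ± 0.883% and miR-106b~25 supplied 0.797 ± 0.0214%. Genes outside the 3 related clusters, Mir92b, Mir32 (83 and 52 reads) and Mir367 (no read), supplied 93.5 ± 0.931%. Reads on genes with the miR-17 seed thus came almost wholly from the clusters, and those on genes with the miR-92 seed mostly from Mir92b. Both arms of a hairpin enter these counts, and the seed is on 1 of them. Any reads of miR-92a that were set aside as mapping to several places are missing from these shares.

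**Figure D2:**
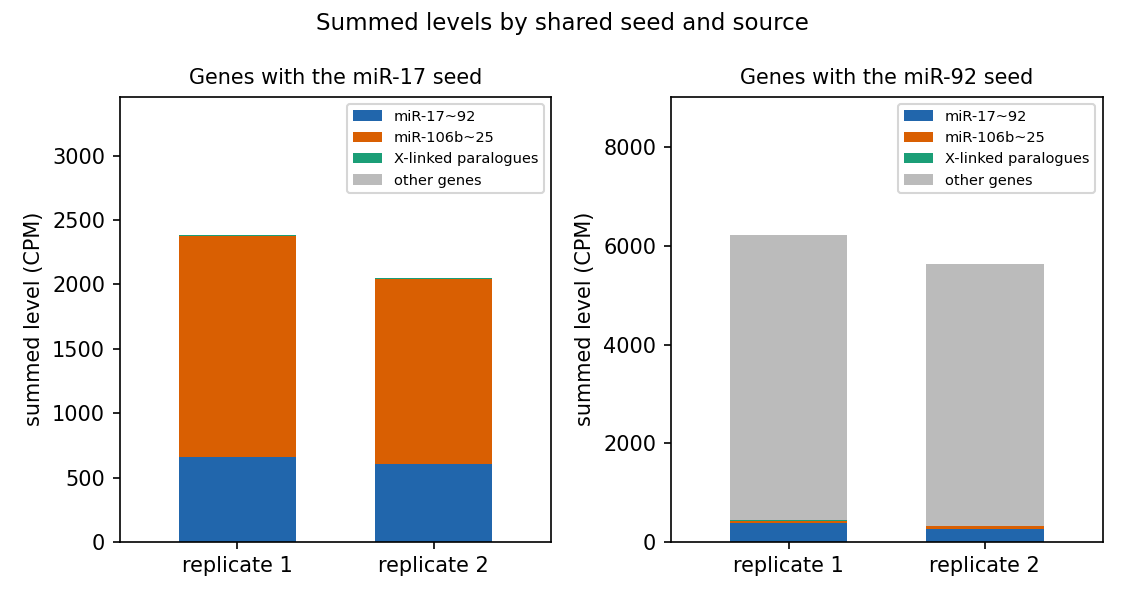
Summed level in CPM of all annotated genes with the miR-17 seed (left) and with the miR-92 seed (right), 1 bar per library, coloured by source and starting at 0. The miR-17 bars are mostly miR-106b~25 and the miR-92 bars mostly other genes, chiefly Mir92b.

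The members found only in miR-17~92 were the lowest. Mir18, which makes miR-18a, had 114 and 92 reads, or 23.1 and 20.7 CPM, and Mir17 exceeded it 18.3-fold (15.2 to 22.3) and 20.5-fold (16.6 to 25.6). Both miR-19 genes were nearly without reads. Mir19a had 1 read in replicate 1 and 0 in replicate 2, and Mir19b-1 had 0 in both. A count of 0 allows for 3 reads, a level of 0.609 CPM in the first library and 0.675 CPM in the second. Against those floors, taken per library, the count of Mir19b-1 was at least 696-fold and 629-fold below that of Mir17 on the same transcript. For Mir19a, the ratio of Mir17 to its single read in replicate 1 was 2087, with a counting interval of 374 to 82471, and in replicate 2 it was at least 629-fold lower. Mir19b-1 has an identical mature copy on the X chromosome and its reads may have been set aside as mapping to several places. Its folds therefore bound its counted reads and not its level. Mir19a shares no stretch of 20 bases with another RefSeq precursor, though its mature form differs from miR-19b by 1 base. Whether its reads were lost in library preparation or mapping, or were not there, was not tested.

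The hairpin of Mir19a, in which RefSeq annotates 1 arm (in capitals), is given beside that of Mir17 because these are the highest and the lowest member of the cluster that share no stretch with another precursor.
Mir17: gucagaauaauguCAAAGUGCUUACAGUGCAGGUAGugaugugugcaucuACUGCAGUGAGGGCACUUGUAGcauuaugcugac
Mir19a: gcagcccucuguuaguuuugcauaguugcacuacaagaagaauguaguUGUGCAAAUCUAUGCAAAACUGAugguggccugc

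Among the detected members, the highest and lowest mean levels were 19.4-fold apart in miR-17~92 and 26.0-fold apart in miR-106b~25. Over all 15 annotated clusters with at least 3 detected genes within 10 kb of each other on 1 strand, the median range was 46.5-fold, and 10 of the 15 had a wider range than miR-17~92 and 8 a wider range than miR-106b~25. A cluster's range grows with its number of genes. Genes not detected are left out in every cluster, so Mir19a and Mir19b-1 do not enter the range of miR-17~92. With Mir19b-1 at the floor of 3 reads, Mir17 was at least 696-fold above it in replicate 1 and 629-fold in replicate 2. These folds are of counted reads, without any of Mir19b-1 that map to several places. The place of miR-17~92 among the clusters therefore holds for detected genes only.

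The third cluster of the family, on the X chromosome from Mir106a to Mir363, was far below both. Its 6 genes summed to 34.9 and 25.2 CPM, with 3 detected, and miR-17~92 exceeded it 30.4-fold (26.1 to 35.6) and 35.4-fold (29.3 to 43.1). Its leading gene was Mir92-2, at 18.3 and 14.4 CPM. Mir363 had 20 reads in replicate 1 and 1 in replicate 2, and Mir18b and Mir19b-2 had none. Mir17 and Mir106a, whose mature forms differ by U10A alone, were 149-fold (88.6 to 273) and 118-fold (72.5 to 207) apart.

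By level in both libraries, as log2(CPM + 1), the 3 genes closest to Mir93 were Mir872, Mir181d and Mir154, at distances of 0.08, 0.16 and 0.22. The 3 closest to Mir17 were Mir1224, Mirlet7a-1 and Mir1981, at 0.14, 0.20 and 0.29. With 2 libraries this is a likeness of level and not of pattern.

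Between the libraries, 4 members were lower in replicate 2 and none was higher. By an exact two-sided binomial test with Benjamini-Hochberg adjustment over all 417 detected genes, 59.2% of genes differed in either direction and 34.5% were lower in replicate 2, against 4 of the 7 detected members. The test compares these 2 libraries and not conditions. Those lower were Mir92-1, with a log2 ratio of replicate 2 to replicate 1 of -0.48 (interval -0.59 to -0.38, adjusted p = 4.6e-19, exact binomial test), Mir20a (-0.42, interval -0.55 to -0.29), Mir106b (-0.27, interval -0.37 to -0.17) and Mir93 (-0.25, interval -0.30 to -0.19). Mir17, Mir18 and Mir25 did not pass, at 0.01 (-0.08 to 0.10), -0.16 (-0.57 to 0.25) and -0.09 (-0.37 to 0.18). For comparison, the median detected gene was 1.29-fold apart, and 11.8% of the detected genes but no member were at least 2-fold apart. Of the 7, Mir92-1 had the largest gap, wider than or equal to that of 60.7% of the detected genes, followed by Mir20a at 55.4%. The gaps of the other 5 were narrower than that of the median gene, with Mir106b at 39.3%.

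The sums of the clusters differed between the libraries by the same factor, whereas genes within miR-17~92 did not. The sum of miR-17~92 was 0.842 times as high in replicate 2 as in replicate 1, and that of miR-106b~25 was 0.843 times as high. Within miR-17~92, the ratio of Mir17 to Mir92-1 went from 1.13 (1.06 to 1.20) in replicate 1 to 1.58 (1.47 to 1.70) in replicate 2, and that of Mir17 to Mir20a from 1.77 (1.65 to 1.90) to 2.38 (2.19 to 2.59). In both cases the intervals, which cover counting error only, do not overlap. The ratio of Mir20a to Mir92-1 was 0.639 (0.593 to 0.688) and 0.666 (0.608 to 0.729), the same within counting error.

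**Figure D3:**
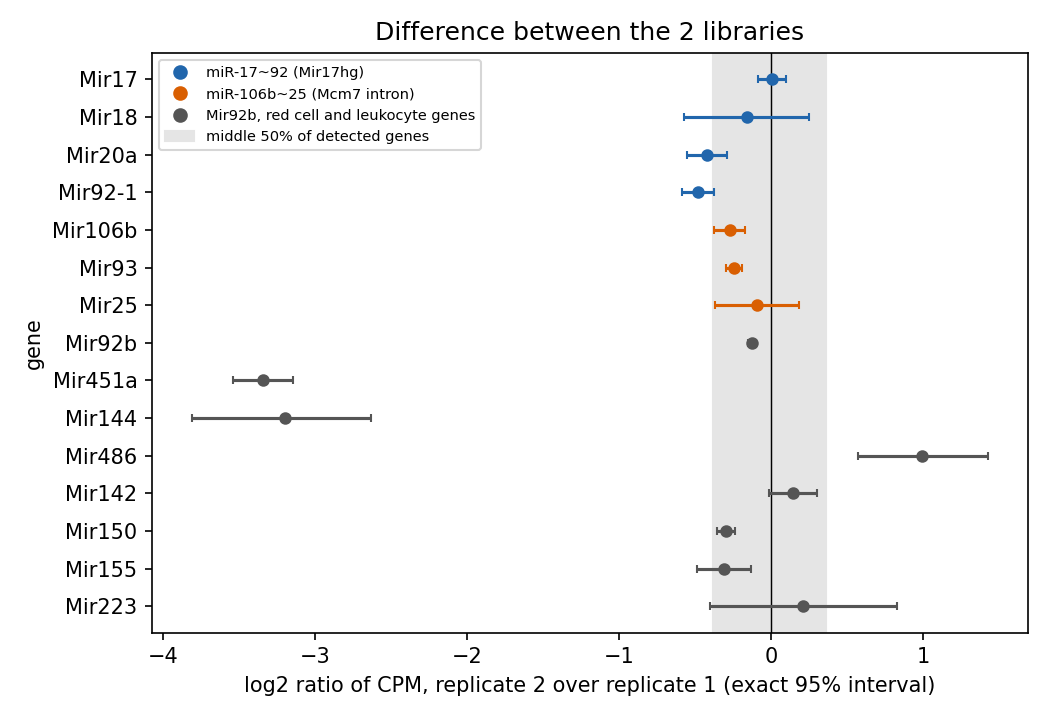
Log2 ratio of CPM in replicate 2 to replicate 1 with exact 95% intervals, for the 7 detected members, Mir92b, and the red cell and leukocyte markers, with the middle 50% of all detected genes shaded. Mir20a and Mir92-1 lie left of the shaded band and Mir451a and Mir144 far left of it.

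Markers of blood cells and of neurons also differed between the libraries, in both directions. Of the 10 detected neuronal markers, 7 were lower in replicate 2, against 34.5% of all detected genes. Among the 7 were Mir137 (12338 and 6351 CPM, log2 ratio -0.96) and Mir128-1 (13556 and 7493 CPM, log2 ratio -0.86). Mir132 was higher (19682 and 44698 CPM), and Mir124a-1 and Mir9-2 did not pass the test. The red blood cell markers Mir451a, Mir144 and Mir486, all 3 detected, had a sum of 602 CPM in replicate 1, against 88.5 CPM in the other library. Of these, Mir451a was lower in replicate 2 (529 and 52.2 CPM) and so was Mir144, while Mir486 was higher (15.0 and 29.9 CPM). The leukocyte and microglia markers, 4 of 4 detected, summed to 1338 and 1131 CPM, with Mir150 and Mir155 lower and Mir142 and Mir223 not past the test. The vessel markers, 3 of 3 detected, summed to 20418 and 21812 CPM, and the oligodendrocyte markers, 2 of 2 detected, to 3387 and 5618 CPM. In replicate 1 the clusters together stood at 2820 CPM, with the red cell markers at 602 CPM. In replicate 2 the clusters stood at 2377 CPM, with the red cell markers at 88.5 CPM. These sums are of different genes and do not give the share of the members' reads that came from red cells. The part of blood, of neurons or of any other cell type in the members' levels was not tested. In bulk tissue, fewer cells of a type and less RNA per cell cannot be told apart.

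**Figure D4:**
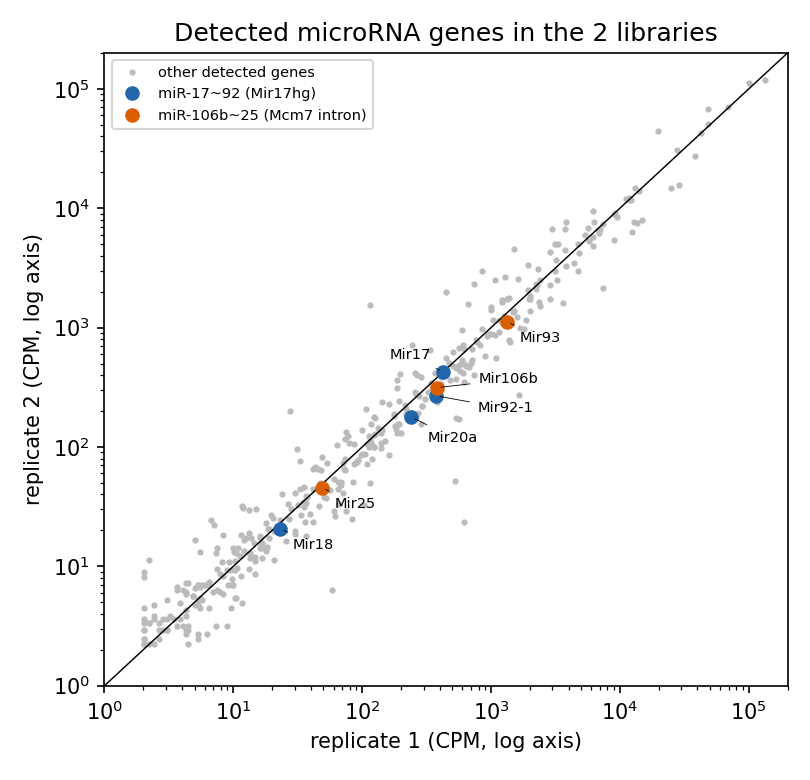
Level in replicate 2 against replicate 1, in CPM on log axes, for the 417 detected genes, with the 7 detected members coloured by cluster and the line of equal level drawn. The members lie close to the line between about 20.7 CPM for Mir18 and 1332 CPM for Mir93.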

How the data were processed

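Small RNA libraries of left cerebral cortex from 2 tissue samples of 1 group were analysed. The deposited tables hold raw read counts per microRNA gene, made by the authors against mm10 with GENCODE M21, per the notes deposited with the samples. For the aligner and the counter, the sources used here give no name. Column 3 was read as sense counts, from the layout of the table. All 2202 gene identifiers were found in GENCODE M21.

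Counts were scaled to 1000000 reads on gene rows (CPM), 4929428 reads in replicate 1 and 4441328 in replicate 2. The unassigned lines, 69.9% and 73.9% of all reads, stayed out. A gene was called detected at 10 or more counts in each library. The libraries were compared gene by gene (exact binomial test, two-sided, conditional on the library totals), with Benjamini-Hochberg adjustment over all detected genes and a threshold of 0.05 (SciPy 1.17.1), tested on simulated data. Intervals are exact 95% intervals and, like the floor of 3 counts, cover counting error only. Levels as log2(CPM + 1) were used only to find the genes closest to Mir93 and Mir17. Sequences are from RefSeq (GRCm38.p6, the build of mm10), where 9 of 9 members and 968 of 2202 genes matched by symbol. No genome sequence was used, so stretches of 20 bases were compared between precursors only.

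The members and lists were chosen with earlier results of these data known. The genes named are the members, the X-linked paralogues, the most abundant gene sharing a seed with a member, the 3 genes closest in level to Mir93 and to Mir17, and the cell type markers. Alternatives were counts without regard to strand, TMM factors (edgeR 4.0.16, R 4.3.3), size factors of DESeq2 1.42.0, scaling to all reads, other count minimums, only precursors without a shared stretch, median members, and each library alone.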

Additional observations from a re-analysis of the deposited data

How the results depend on the processing

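The ratio of miR-106b~25 to miR-17~92 kept its direction in each library alone. Over members without a shared stretch it was 2.47, a rise fixed by construction, since both genes left out are in miR-17~92. For the median members it was 3.02, with the undetected miR-19 genes included. Counts without regard to strand gave the same ratio by construction, since no member had a read on the opposite strand. The ratio turned to 0.403 without Mir93, since that alternative leaves out the most abundant member. Scaling to all reads lowered the sums, by its construction, to 276 CPM for miR-17~92 and 458 CPM for miR-106b~25. The ratios within the miR-17 and miR-92 families kept their direction in each library alone. In the counts without regard to strand these ratios were also the same by construction. The 4 members lower in replicate 2 stayed so, each with its call, under TMM factors, DESeq2 size factors, the counts without regard to strand and both other count minimums. Mir17 did not keep the smallest spread. Its log2 ratio was 0.059 under TMM factors and 0.054 under DESeq2 size factors, against -0.038 and -0.043 for Mir25. No paired analysis was possible because there is a single group. With 2 libraries, the SD of each level is itself poorly known, and Mir18, Mir25 and the X-linked genes are limited by their counts.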

Other observations

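Other clusters also held genes without reads beside well-counted neighbours. Annotated clusters with at least 3 genes, neighbours within 10 kb on 1 strand, and a leading gene of at least 100 CPM numbered 13. Of these, 5 held a gene with no read in either library, miR-17~92 among them. For miR-17~92 this gene was Mir19b-1, whose reads may have been set aside as mapping to several places. Clusters with more genes have more that can be without a read, and size was not allowed for.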
